A study of Mus musculus with 40 samples.

Results

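The MEIS, PBX and PKNOX proteins are homeodomain transcription factors of the TALE class, which partner HOX proteins on DNA. The genes described here are Meis1, Meis2, Meis3, Pbx2, Pbx3 and Pknox1, found in the deposited count table by matching Ensembl identifiers to symbols. All 6 were present among 53465 gene identifiers, and none of the 6 was lost to the low-count filter, so all were tested. The RNA came from urothelial cells of mouse bladder in organoid culture. Cells were wild type (WT) or carried the label of a double knockout of Kmt2c and Kmt2d (dKO), genes that encode histone H3 lysine 4 methyltransferases acting at enhancers. Each genotype received the solvent DMSO or 1 µM MI-503 for 4 days, which gives 4 groups of 2 libraries. MI-503 is an inhibitor that keeps menin from binding the methyltransferase KMT2A. The medium of every group held R-spondin, Noggin, EGF, the ROCK inhibitor Y-27632 and the TGF-beta receptor inhibitor A83-01. The labels used here do not say how the deletions were made, how old the animals were, or whether replicates were separate cultures or lines. P-values therefore measure only the spread between these libraries, which may be technical.

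PBX proteins bind DNA together with HOX proteins and give them a longer and more selective recognition sequence. MEIS and PKNOX proteins (PKNOX1 is also called PREP1) bind PBX, help to keep it in the nucleus and add a DNA contact of their own. In leukaemia driven by KMT2A fusions, Meis1 and Hoxa9 are the classic genes kept active through menin, and PBX3 is a known partner of their products. Meis1 and Meis2 are also known to respond to retinoic acid in other tissues.

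Meis1 RNA fell with MI-503 in both genotypes, by 2.93-fold in WT and 2.77-fold in dKO cells, and Pbx2 RNA rose in both, by 1.80-fold and 1.69-fold. Meis2 RNA was lower in dKO than in WT cells by 2.39-fold in DMSO and 2.28-fold in MI-503. Pbx3 RNA fell with MI-503 by 1.95-fold in WT and 1.19-fold in dKO cells, and it was the 1 gene of the 6 whose MI-503 effect passed the interaction test. Pknox1 fell in both genotypes by less than Meis1, and Meis3 had few counts.

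Library totals ran from 58113705 to 68571176 counts. Levels are given as CPM, the share of a library's counts per 1e6, scaled by TMM, a normalization that takes most genes as unchanged. Both WT DMSO libraries had lower TMM factors (0.896 and 0.892) than the other 6. The libraries labelled dKO had less Kmt2c RNA (53.8 ± 2.08 against 111 ± 0.476 CPM in DMSO, SD, n = 2) but more Kmt2d RNA (122 ± 15.7 against 91.0 ± 6.26 CPM), and counts over a whole gene do not show the loss of single exons. Of 19 urothelial markers 18 passed the filter, and their sum was 9323 to 10154 CPM in WT DMSO and 15779 to 16553 CPM in WT MI-503, with 18384 to 20399.9 and 18724 to 20970.0 CPM in dKO cells. The rise in WT lay in Krt5 (3974 to 7469.6 CPM) and Krt7 (1311 to 4989 CPM), both named after their values were seen. Of the 18, 8 rose and 7 fell with MI-503 in WT, and 5 rose and 8 fell in dKO cells. Upk2 was near 0 throughout.

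Markers of other cell types also moved with the groups. The sum of 9 fibroblast markers was 1.86 to 2.07 CPM in WT DMSO, 26.0 to 29.1 in WT MI-503, 6.91 to 8.09 in dKO DMSO and 21.7 to 23.3 in dKO MI-503. Most of the MI-503 sums was Vim, and Col1a2, Dcn, Lum and Thy1 had 0 counts in all 8 libraries. In the same order, 7 smooth muscle markers summed to 48.7 to 54.7, 104 to 115, 75.2 to 95.1 and 118 to 142 CPM, with Cnn1 and Actg2 below 0.1 CPM. Nearly all of these sums was Smtn and Acta2. With MI-503, Smtn went from 48.0 to 67.6 CPM in WT and from 83.8 to 122 CPM in dKO cells. Acta2 went from 3.20 to 40.8 CPM in WT and from 0.988 to 7.14 CPM in dKO cells. In the group order above, the sum of 7 immune markers was 16.5 to 18.6, 161 to 166, 13.1 to 13.2 and 61.2 to 69.8 CPM, nearly all from the lysosomal gene Cd68, with Adgre1 and Lyz2 at 0. For 6 neuronal markers it was 22.1 to 24.1, 14.1 to 14.9, 56.1 to 56.8 and 61.6 to 65.5 CPM, and 7 endothelial markers reached at most 0.468 CPM, with Emcn at 0. The part of these shifts in the results below was not tested. In bulk RNA, fewer cells of a type and less RNA per cell cannot be told apart.

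Promoters are shown for 3 members whose RNA moved in different ways: Meis1 fell with MI-503, Meis2 differed by genotype and Pbx2 rose with MI-503. Of the 6 members, 4 had an entry in the RefSeq promoter table for GRCm38.p6. Each line gives the 250 bases before the listed start site, 5′ to 3′ on the gene's strand, with CG dinucleotides in capitals. The CXXC domain of KMT2A is known to bind unmethylated CG. The stretches are chr11:19018970-19019219 (minus strand) for Meis1, chr2:116064620-116064869 (minus strand) for Meis2 and chr17:34592009-34592258 (plus strand) for Pbx2, and for Meis1 and Meis2 the listed start lies inside the outer end of the gene.
Meis1: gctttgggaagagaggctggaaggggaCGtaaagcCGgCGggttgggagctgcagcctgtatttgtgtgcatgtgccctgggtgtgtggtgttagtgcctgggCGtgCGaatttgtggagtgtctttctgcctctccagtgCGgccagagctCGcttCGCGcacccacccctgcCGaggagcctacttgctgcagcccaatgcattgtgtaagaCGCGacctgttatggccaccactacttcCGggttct
Meis2: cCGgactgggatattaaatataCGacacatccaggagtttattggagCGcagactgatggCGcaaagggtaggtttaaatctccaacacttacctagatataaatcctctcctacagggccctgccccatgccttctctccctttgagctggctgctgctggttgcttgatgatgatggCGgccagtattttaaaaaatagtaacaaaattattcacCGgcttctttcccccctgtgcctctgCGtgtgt
Pbx2: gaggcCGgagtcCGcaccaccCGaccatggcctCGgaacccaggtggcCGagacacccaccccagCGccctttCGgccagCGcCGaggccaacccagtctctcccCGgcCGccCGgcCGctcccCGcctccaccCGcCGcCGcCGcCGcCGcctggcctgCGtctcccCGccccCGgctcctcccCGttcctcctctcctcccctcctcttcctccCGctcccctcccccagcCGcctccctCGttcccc
The Pbx2 stretch holds 27 CG, and 91.4% of 32851 promoter entries have fewer over the same length, against a median of 6. Meis1 has 13 CG (68.5% have fewer), Meis3 has 12 (66.5%) and Meis2 has 7 (53.7%). The Meis3 stretch (chr7:16175145-16175394, plus strand) is not printed, and its listed start also lies inside the outer end of the gene. Neither TGACAG, the core bound by MEIS and PKNOX proteins, nor TGATTNAT, a sequence bound by PBX with HOX, was found on either strand of these stretches of Meis1, Meis2, Meis3 and Pbx2. TGACAG occurs in 15.9% of all entries and TGATTNAT in 2.8%.

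**Figure D1:**
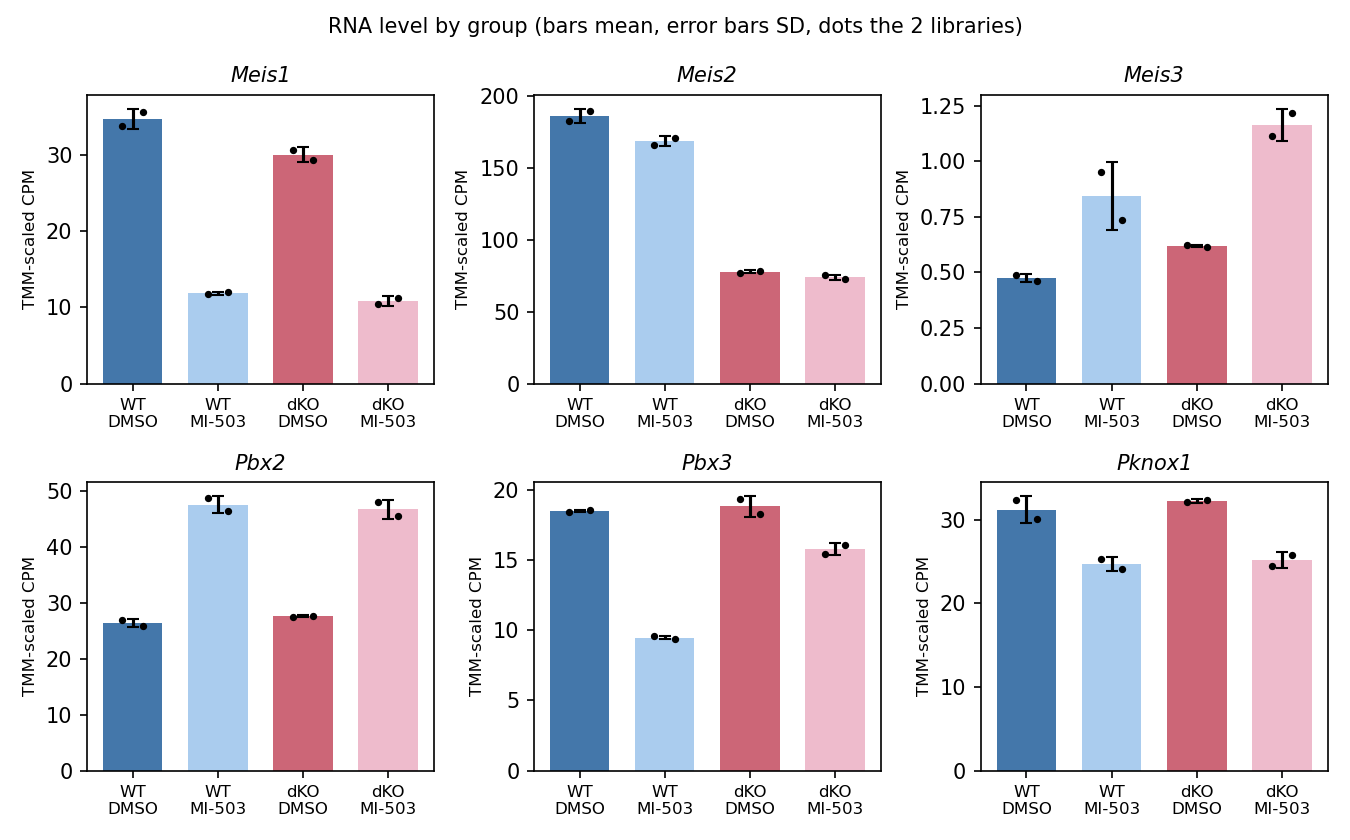
RNA level of the 6 genes in TMM-scaled CPM by group, with the mean of 2 libraries, the SD and single libraries. Each panel has its own axis from 0. Meis1 is low in both MI-503 groups, Meis2 in both dKO groups, and Pbx3 is lowest in WT MI-503.

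Meis1 (ENSMUSG00000020160, chromosome 11, 18880428 to 19019651) encodes the MEIS protein best known as the partner of HOXA9 in leukaemia, and this and later gene positions are in GRCm38.p6. Its level in WT cells was 33.9 and 35.7 CPM with DMSO and 11.7 and 12.0 CPM with MI-503, and in dKO cells 30.8 and 29.4 CPM with DMSO and 10.4 and 11.3 CPM with MI-503. The 4 DMSO libraries were all above the 4 MI-503 libraries, and within each treatment the dKO pair was under the WT pair. With MI-503, Meis1 fell by 1.55 on the log2 scale in WT (SE 0.0712, edgeR adjusted p = 1.93e-10), where 33.7% of all genes tested were called lower, and by 1.47 in dKO cells (SE 0.0716, edgeR adjusted p = 1.22e-09), where 26.5% were. A lower log2 fold change was found for 5.54% of genes in WT and 3.11% in dKO cells. The effect in dKO minus that in WT was 0.080 (95% interval -0.14 to 0.30, interaction adjusted p = 0.555). Over 15 alternatives the value ranged from -1.59 to -1.38 in WT and -1.53 to -1.41 in dKO cells, past the threshold each time.

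The genotype difference of Meis1 was smaller. In DMSO its level was lower in dKO than in WT libraries (log2 fold change -0.21, SE 0.0668, edgeR adjusted p = 0.0133). That call ended with library size only (0.019, adjusted p = 0.815), DESeq2 (adjusted p = 0.0730), no filter (adjusted p = 0.292), the stricter filter (adjusted p = 0.0759) and only the groups compared (adjusted p = 0.128), and without WT DMSO replicate 2 (adjusted p = 0.0980) or dKO DMSO replicate 2 (adjusted p = 0.0782). Relative to the median of all genes it was -0.16 with TMM and -0.16 with library size only. In MI-503 the difference of -0.13 did not pass (95% interval -0.29 to 0.031, adjusted p = 0.162).

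Meis2 (ENSMUSG00000027210, chromosome 2, 115861264 to 116067537) encodes a close relative of MEIS1 with roles in limb, heart and neural crest development. In WT cells it measured 182 and 189.6 CPM with DMSO and 166 and 171 CPM with MI-503, against 77.1 and 78.4 CPM with DMSO and 75.1 and 72.8 CPM with MI-503 in dKO cells. All 4 dKO libraries were under all 4 WT libraries. Meis2 was lower in dKO cells both in DMSO (log2 fold change -1.26, SE 0.0464, edgeR adjusted p = 3.26e-11) and in MI-503 (-1.19, SE 0.0465, adjusted p = 7.82e-11). A lower value was found for 10.3% and 9.87% of all genes. With MI-503, Meis2 changed by -0.14 in WT (adjusted p = 0.0123), but with library size only by 0.032 (adjusted p = 0.538). The call also ended with DESeq2 (adjusted p = 0.0688), no filter (adjusted p = 0.369) and the stricter filter (adjusted p = 0.0530), and without WT DMSO replicate 2 (adjusted p = 0.0940) or WT MI-503 replicate 1 (adjusted p = 0.107). In dKO cells the change of -0.073 did not pass (95% interval -0.17 to 0.028, adjusted p = 0.207), nor did the interaction (0.070, 95% interval -0.070 to 0.21, adjusted p = 0.412).

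Meis3 (ENSMUSG00000041420, chromosome 7, 16174012 to 16186510), the third MEIS gene, had 30 and 28 counts with DMSO and 65 and 44 with MI-503 in WT cells, and 41 and 44 with DMSO and 75 and 75 with MI-503 in dKO cells. In the same order, this is 0.476 ± 0.0180, 0.843 ± 0.152, 0.619 ± 0.00343 and 1.16 ± 0.0726 CPM (SD, n = 2). Unlike Meis1, it rose with MI-503, by 0.83 on the log2 scale in WT (SE 0.262, edgeR adjusted p = 0.0122) and by 0.91 in dKO cells (SE 0.237, adjusted p = 0.00495). The call in WT was lost without WT DMSO replicate 2 (adjusted p = 0.0527) or WT MI-503 replicate 1 (adjusted p = 0.118). Between genotypes the dKO pair was above the WT pair with either treatment, yet neither difference passed: 0.38 in DMSO (95% interval -0.21 to 0.97, adjusted p = 0.239) and 0.46 in MI-503 (95% interval -0.037 to 0.95, adjusted p = 0.109). The interaction was 0.079 with a wide interval (95% interval -0.70 to 0.86, adjusted p = 0.887).

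Pbx2 (ENSMUSG00000034673, chromosome 17, 34592259 to 34597400) encodes a broadly expressed PBX protein. Its level in WT cells was 27.0 and 25.9 CPM with DMSO and 48.7 and 46.4 CPM with MI-503, and in dKO cells 27.5 and 27.7 CPM with DMSO and 47.9 and 45.4 CPM with MI-503. The MI-503 libraries were all above the DMSO libraries, and the genotypes overlapped in MI-503. Pbx2 rose with MI-503 by 0.85 on the log2 scale in WT (SE 0.0598, edgeR adjusted p = 1.65e-08), where 35.2% of all genes were called higher, and by 0.76 in dKO cells (SE 0.0594, adjusted p = 1.28e-07), where 29.1% were. The interaction of -0.090 did not pass (95% interval -0.27 to 0.091, adjusted p = 0.416), though with library size only it was -0.25 and passed (adjusted p = 0.0247). Genotype differences did not pass in DMSO (0.064, 95% interval -0.067 to 0.19, adjusted p = 0.373) or in MI-503 (-0.026, 95% interval -0.15 to 0.099, adjusted p = 0.731). The DMSO value passed with library size only (0.29, adjusted p = 0.000747) and with the stricter filter (0.14, adjusted p = 0.0380).

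Pbx3 (ENSMUSG00000038718, chromosome 2, 34171457 to 34372045) encodes the PBX protein known as a partner of HOXA9 and MEIS1 in leukaemia. In WT cells it measured 18.4 and 18.6 CPM with DMSO and 9.56 and 9.38 CPM with MI-503, and in dKO cells 19.3 and 18.3 CPM with DMSO and 15.5 and 16.0 CPM with MI-503. The DMSO pairs overlapped between genotypes, whereas the dKO MI-503 pair stood above the WT MI-503 pair. Pbx3 fell with MI-503 by 0.96 on the log2 scale in WT (SE 0.0738, edgeR adjusted p = 3.92e-08) and by 0.26 in dKO cells (SE 0.0706, adjusted p = 0.00688). The effect in dKO minus that in WT was 0.71 (95% interval 0.49 to 0.93, interaction adjusted p = 6.74e-05), where 24.8% of all genes were called higher and 22% lower. It ranged from 0.55 to 0.75 over 14 alternatives and passed in each. The fall in dKO cells no longer passed without dKO DMSO replicate 1 (-0.22, adjusted p = 0.0502) or dKO MI-503 replicate 1 (-0.23, adjusted p = 0.0567). Between genotypes Pbx3 did not pass in DMSO (0.026, 95% interval -0.13 to 0.18, adjusted p = 0.766), except with library size only (0.25, adjusted p = 0.00540), and was higher in dKO cells in MI-503 (0.73, SE 0.0741, adjusted p = 1.54e-06).

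Pknox1 (ENSMUSG00000006705, chromosome 17, 31564722 to 31607693) encodes PREP1, which competes with MEIS proteins for PBX. Its level in WT cells was 32.4 and 30.0 CPM with DMSO and 25.3 and 24.1 CPM with MI-503, and in dKO cells 32.1 and 32.4 CPM with DMSO and 24.4 and 25.8 CPM with MI-503. The genotypes overlapped with either treatment, and the MI-503 libraries were all lower. Pknox1 fell with MI-503 by 0.34 on the log2 scale in WT (SE 0.0651, edgeR adjusted p = 0.000373; with library size only -0.16, adjusted p = 0.0417) and by 0.36 in dKO cells (SE 0.0647, adjusted p = 0.000312). The interaction did not pass (-0.022, 95% interval -0.22 to 0.18, adjusted p = 0.876), nor did the genotype difference in MI-503 (0.024, 95% interval -0.12 to 0.17, adjusted p = 0.785). In DMSO it was 0.046 (95% interval -0.093 to 0.18, adjusted p = 0.553), and it passed with library size only (0.27, adjusted p = 0.00218).

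**Figure D2:**
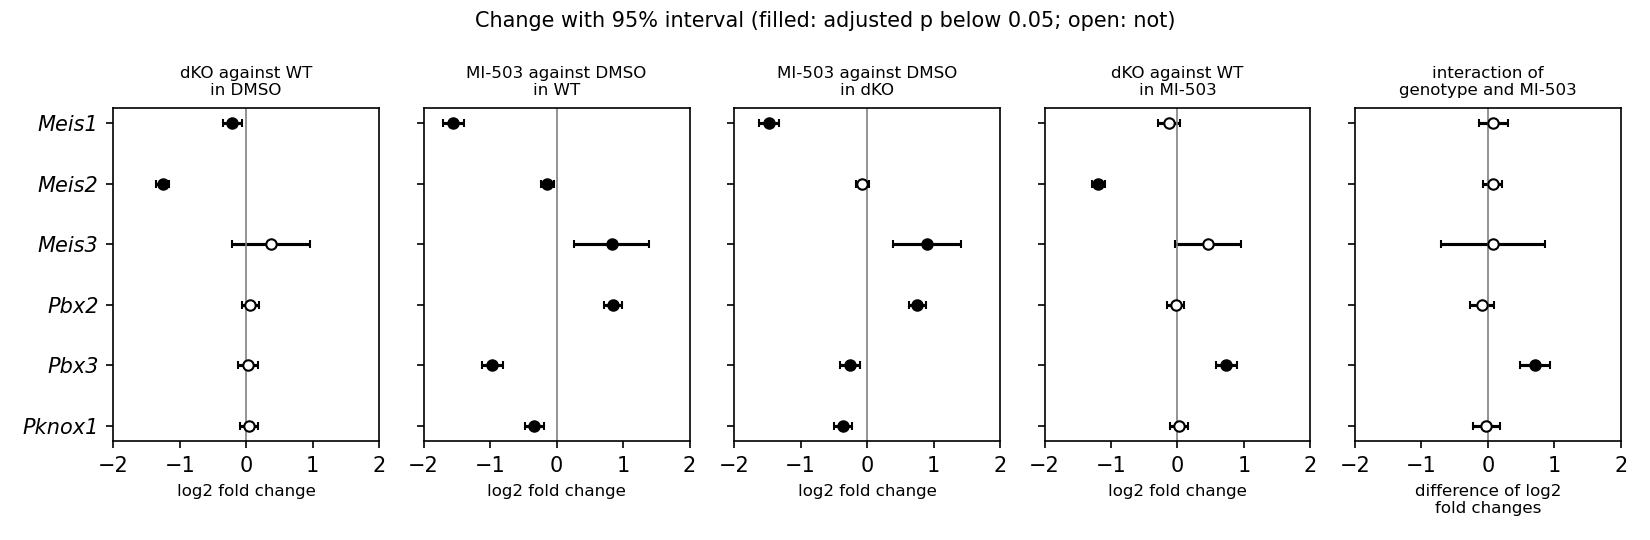
Change of the 6 genes in each comparison on the log2 scale, with 95% intervals, from the edgeR model over 8 libraries. Filled points have an adjusted p below 0.05 and open points do not. Meis2 lies far from 0 in both genotype comparisons, and Pbx3 is the 1 filled point of the interaction.

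Counted over the 6 genes, 0 rose and 2 fell in dKO against WT in DMSO, where 65.4% of 16921 genes tested were called, 29.6% higher and 35.8% lower. With library size only, 3 rose and 1 fell there, with a median log2 fold change of 0.26. MI-503 in WT raised 2 and lowered 4, against 69% of all genes called. In dKO cells 2 rose and 3 fell, against 55.6% called. Between genotypes in MI-503, 1 rose and 1 fell, against 55.1% called (26.6% higher, 28.5% lower), and 1 passed in the interaction, against 46.8% called. Calls were frequent among all genes, so these counts set the members apart in no comparison. The library pairs did not overlap for 4 members between genotypes in DMSO (81.1% of all genes), 6 between treatments in WT (83.4%), 6 between treatments in dKO (75.1%) and 4 between genotypes in MI-503 (77.1%). The median log2 fold change of the 6 was 0.036 between genotypes in DMSO (all genes -0.052), -0.24 with MI-503 in WT (all genes 0.031) and -0.16 with MI-503 in dKO cells (all genes 0.031). The genotype comparison in DMSO and the treatment comparison in WT share the WT DMSO libraries.

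Ratios of counts within a library do not depend on the scaling between libraries. Meis2 counts per Meis1 count were 5.38 and 5.30 in WT cells with DMSO and 14.2 and 14.2 with MI-503, and 2.51 and 2.66 with DMSO and 7.22 and 6.44 with MI-503 in dKO cells. No groups overlapped, and the ratio was higher with MI-503 in each genotype and lower in dKO cells under each treatment. Pbx2 counts per Pbx3 count were 1.46 and 1.40 in WT cells with DMSO and 5.09 and 4.95 with MI-503, and 1.42 and 1.51 with DMSO and 3.10 and 2.83 with MI-503 in dKO cells. The DMSO groups overlapped, and the ratio was higher with MI-503 in both genotypes. With 2 against 2 libraries an exact permutation test cannot go below p = 0.333, so these ratios are a description, and since the genes differ in length they are not ratios of molecules.

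**Figure D3:**
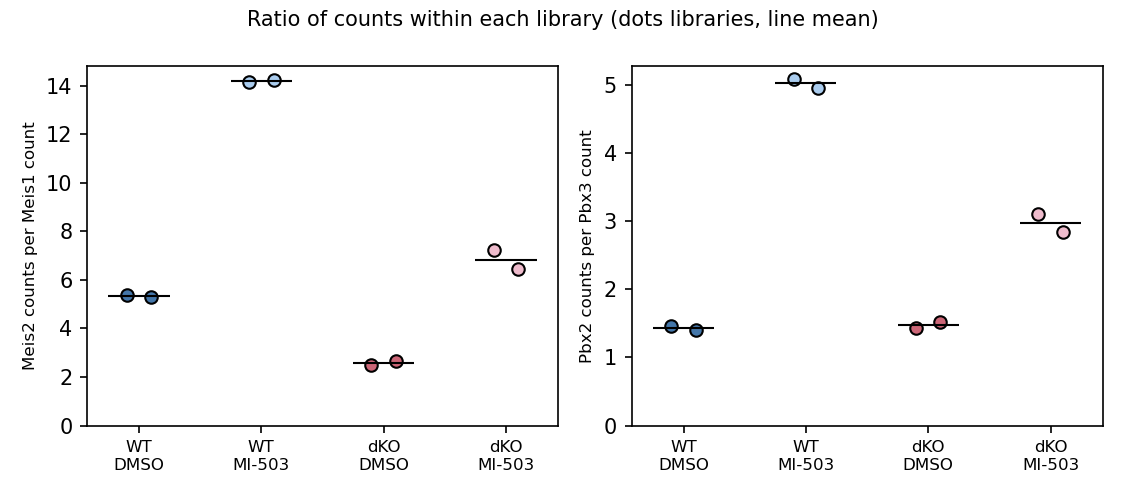
Counts of Meis2 per count of Meis1 and of Pbx2 per count of Pbx3 in each library, by group. Meis2 per Meis1 is highest in WT MI-503 and lowest in dKO DMSO, and Pbx2 per Pbx3 is highest in WT MI-503.

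Further genes of the class were Pbx4 and Pknox2. Pbx4, known mainly from the testis, rose with MI-503 in WT (1.83 on the log2 scale, edgeR adjusted p = 4.65e-06) and in dKO cells (1.59, adjusted p = 0.000524). Its level stayed low, from 0.243 ± 0.0856 CPM in dKO DMSO to 2.48 ± 0.229 CPM in WT MI-503 (SD, n = 2). Pknox2 had 1 count in 1 library and 0 in the other 7. Pbxip1 encodes a protein that binds PBX and keeps it from DNA. It rose with MI-503 from 6.72 ± 0.970 to 22.2 ± 0.435 CPM in WT (1.72, adjusted p = 1.23e-09) and from 13.3 ± 0.508 to 20.5 ± 1.02 CPM in dKO cells (0.62, adjusted p = 3.87e-05). The rise was smaller in dKO cells (interaction -1.10, adjusted p = 1.11e-05).

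Of 9 other TALE homeobox genes (Tgif, Irx and Mkx), 7 were tested, and 5 were higher and 1 lower in dKO than in WT cells in DMSO (median log2 fold change 1.59, all genes -0.052). Of all genes, 65.4% were called there, 29.6% higher and 35.8% lower. Mkx, a gene of tendon development, rose from 0.336 ± 0.0311 to 11.3 ± 0.363 CPM (5.06, edgeR adjusted p = 3.53e-12). The patterning gene Irx2 rose from 21.8 ± 0.995 to 35.2 ± 3.03 CPM (0.69, adjusted p = 1.47e-06). Its relatives Irx1 (1.98, adjusted p = 6.75e-07) and Irx3 (1.59, adjusted p = 0.000517) rose at low levels. Irx1 went from 0.819 ± 0.177 to 3.23 ± 0.305 CPM and Irx3 from 0.492 ± 0.0178 to 1.48 ± 0.650 CPM. The dKO DMSO libraries had 67 and 138 counts of Irx3. Irx5 went from 5 and 0 to 116 and 122 counts (adjusted p = 6.66e-07). Mkx, Irx1, Irx3 and Irx5 had means below 1 CPM in WT DMSO, so the median of the 7 is no typical size. With MI-503, 1 of the 7 rose and 4 fell in WT, and 2 rose and 3 fell in dKO cells. Of all genes, 69% and 55.6% were called there, so these counts do not set the 7 apart. Tgif1, a repressor in TGF-beta and retinoid signalling, fell in WT (-0.65, adjusted p = 4.30e-08) and dKO cells (-0.68, adjusted p = 7.64e-08), and its relative Tgif2 rose in both (0.57, adjusted p = 1.27e-05, and 0.93, adjusted p = 1.89e-07).

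HOX proteins are the partners of these cofactors. Of 12 tested Hox genes of paralog groups 9 to 13, 0 rose and 12 fell with MI-503 in WT (median -1.83, all genes 0.031), and 0 rose and 8 fell in dKO cells (median -0.42, or -0.40 with a gene at 0 set to its bound at 3 counts per library; all genes 0.031). Of all genes, 33.7% were called lower in WT and 26.5% in dKO cells. Several of the 12 had few counts, with means below 1 CPM in WT DMSO, so the WT median is no typical size. The 7 with a mean of at least 5 CPM over the 8 libraries changed in WT by -3.05 (Hoxb9) to -0.42 (Hoxa10). Their middle value was -0.79 (Hoxd9). Among them, 1 gene reached this mean only through dKO cells, with 1.34 CPM in WT DMSO and 0.851 CPM in WT MI-503. Hoxa9, the partner of Meis1 in leukaemia, fell by 0.57 in WT (edgeR adjusted p = 1.36e-07) and by 0.53 in dKO cells (adjusted p = 5.08e-07). Hoxa11 (interaction 1.25, adjusted p = 6.61e-08), Hoxa13 (1.51, adjusted p = 3.98e-07) and Hoxb9 (1.18, adjusted p = 0.000277) fell less in dKO than in WT cells, as Pbx3 did. In the interaction 8 of the 12 were called higher and 0 lower, against 24.8% and 22% of all genes. Of 20 tested Hox genes of groups 1 to 8, 3 rose and 9 fell with MI-503 in WT, and 0 rose and 10 fell in dKO cells. The share called in either direction was below that of all genes in both (69% in WT, 55.6% in dKO cells), but the calls leaned lower. By direction, 35.2% of all genes were called higher and 33.7% lower in WT, and 29.1% and 26.5% in dKO cells. With library size only, the falls in WT numbered 11 in groups 9 to 13 and 6 in groups 1 to 8.

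**Figure D4:**
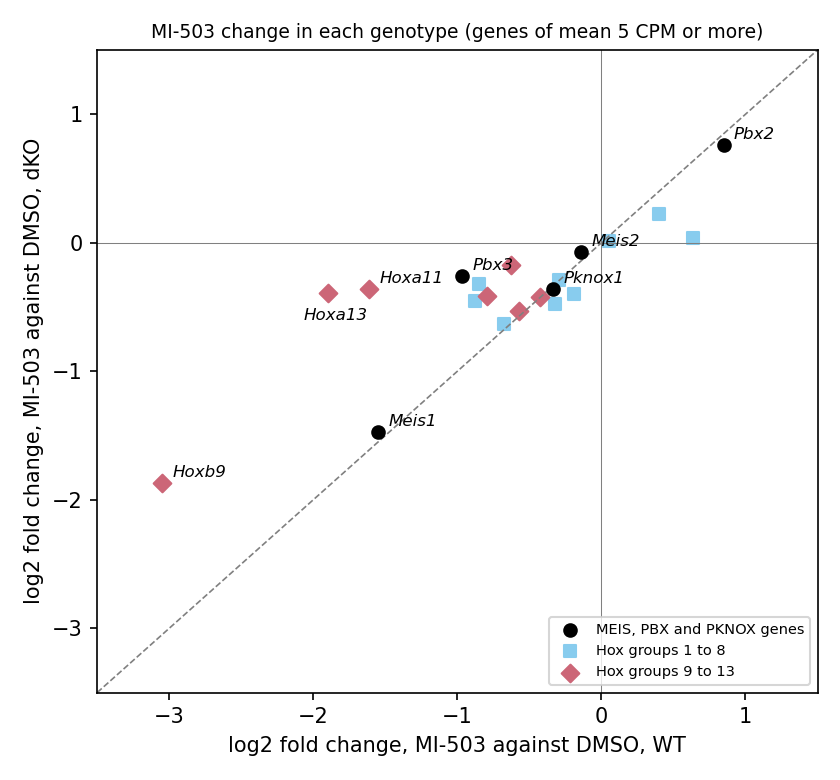
Log2 fold change with MI-503 in WT (horizontal) and in dKO cells (vertical) for genes with a mean of at least 5 CPM: 5 of the members, 9 Hox genes of groups 1 to 8 and 7 of groups 9 to 13. On the dashed line both changes are equal. Meis1 lies close to the line, and Pbx3, Hoxa11, Hoxa13 and Hoxb9 lie above it. The 2 changes use separate libraries.

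Of 12 tested other genes that menin is known to keep active in leukaemia, 3 rose and 5 fell with MI-503 in WT (median 0.0087, all genes 0.031), and 2 rose and 6 fell in dKO cells (median -0.23, all genes 0.031). With 69% of all genes called in WT and 55.6% in dKO cells, these counts do not set the list apart. With library size only, 5 rose and 4 fell in WT. Jmjd1c, of the histone demethylase family, fell by 1.12 in WT (edgeR adjusted p = 2.20e-10) and 0.61 in dKO cells (adjusted p = 2.77e-07). Mbnl1, which encodes a splicing regulator, fell by 0.91 in WT (adjusted p = 6.82e-10) and less in dKO cells (interaction 0.65, adjusted p = 2.95e-06). Both are named for their small adjusted p, and the 3 genes that rose in WT are not named.

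Of 14 tested genes of the retinoic acid pathway, 10 rose and 2 fell in dKO against WT in DMSO (median 0.56, all genes -0.052), and 7 rose and 2 fell with MI-503 in WT (median 0.28, all genes 0.031). In dKO cells 2 rose and 3 fell with MI-503. Of all genes, 65.4%, 69% and 55.6% were called in the same 3 comparisons, and the list's share with MI-503 in WT is near that. Stra6, the receptor for retinol uptake, rose from 141 ± 13.5 CPM in WT DMSO to 619.6 ± 19.2 CPM in dKO DMSO (2.14, edgeR adjusted p = 3.58e-12) and to 408 ± 10.3 CPM in WT MI-503 (1.53, adjusted p = 5.22e-11). Cyp26b1, which degrades retinoic acid, was higher in dKO cells in DMSO (1.08, adjusted p = 5.83e-09) and fell with MI-503 in WT (-0.82, adjusted p = 1.19e-07) and in dKO cells (-1.31, adjusted p = 1.93e-09). Stra6 and Cyp26b1 are named for their small adjusted p, and the 2 genes that fell in dKO against WT in DMSO are not named.

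For each member, the 3 genes with the most similar profile were those with the smallest root mean square difference of centred log2 CPM over the 8 libraries, among 9785 genes with a mean of at least 5 CPM (9786 for Meis3). For Meis1 they were Tbpl1 (0.0333), Acer3 (0.0572) and Fam84b (0.0757). Tbpl1, which encodes a relative of the TATA-binding protein, fell with MI-503 by 1.54 in WT and 1.43 in dKO cells. Matches were chosen by their profile over these same libraries, so such changes follow from the choice and are no separate result. For Meis2 they were Vsnl1 (0.0541), Fam69a (0.0636) and Tmprss13 (0.0665). Vsnl1, a neuronal calcium sensor gene, was lower in dKO cells in DMSO (-1.19) and likewise under MI-503 (-1.17), which its choice as a match also fixes. Pbx3 was matched by the splicing factor gene Hnrnph3 (0.0454), Anp32a (0.0489) and the clock gene Cry1 (0.0504). Pbx2 was matched by Zfyve26 (0.0424), Rhobtb2 (0.0463) and Scarb1 (0.0536), and Pknox1 by Gid8 (0.0385), Atic (0.0411) and Tm9sf4 (0.0413). The matches of Meis3 were looser, with Hsd17b7 (0.0957), Tfrc (0.101) and Polh (0.107).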

How the data were processed

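Used here were 8 polyA RNA-seq libraries, and the other 32 of 40 samples were not analysed here. The authors deposited raw read counts per Ensembl gene, and the submitters' processing notes name STAR and GRCm38 for the series. The counter, strand setting and annotation release: not given in the sources used here. Reads of overlapping or antisense genes can thus not be told apart. A row with no identifier was left out, and 53274 of 53465 identifiers matched a symbol. In R 4.3.3, edgeR 4.0.16 kept 16921 genes (filterByExpr, at least 10 counts and 15 in total) and fitted TMM-scaled quasi-likelihood means of the 4 groups (4 residual degrees of freedom, biological coefficient of variation 5.14%). Two-sided p-values were adjusted by Benjamini-Hochberg over all genes within each of 5 contrasts, with a threshold of 0.05. The SE is the log2 fold change divided by the root of F. Replicate columns differed by more than sampling noise. Alternatives were DESeq2 1.42.0, scaling by RLE or by library size only, a stricter filter (1 CPM in all 8) or none, a fit of only the groups compared, leaving out single libraries, and a replicate block. Named genes were the members, tested TALE genes, per list and contrast up to 3 called genes of smallest adjusted p (mean of at least 5 CPM), profile matches and neighbours; the text prints some of them, and Hoxa9 meets this rule in 2 contrasts. The members and lists were chosen with earlier results of these data known. Positions and promoters are from RefSeq GRCm38.p6, matched by symbol. Some genes of the lists count in the totals but are not reported here by name. Levels are not compared between genes, since no lengths were used.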

Additional observations from a re-analysis of the deposited data

Results flagged for a closer look

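The effect of MI-503 on Pbx3 RNA differed between the genotypes by the interaction test: the effect in dKO minus that in WT was 0.71 on the log2 scale (SE 0.102, edgeR adjusted p = 6.74e-05). In each genotype both MI-503 libraries were under both DMSO libraries. Of all genes tested, 46.8% passed the same test.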

How the results depend on the processing

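Of the 30 results for members (6 genes in 5 contrasts), 22 kept their call under all alternatives run, and their direction where called. Values called in neither fit count as kept even where the sign turned, as in the Meis1 interaction (-0.079 to 0.14). Of 439 values, 417 were kept, 15 lost the call and 5 gained one. The other 2 were called results that turned direction, both with library size only: Meis1 in dKO against WT in DMSO (0.019) and Meis2 with MI-503 in WT (0.032). That scaling moved the median of all genes by 0.23 and 0.17 there and by -0.16 in the interaction; relative to the median Meis2 was -0.17 with TMM and -0.17 without. The share of higher calls among all genes went from 45.3% to 61.7% between genotypes in DMSO and from 52.9% to 37.2% in the interaction, where no filter gave 42.7%. Members called between genotypes in DMSO numbered 2, but 4 with library size only, 1 with DESeq2, 1 with no filter, 1 with only the groups compared and 1 to 2 with 1 library left out. In the interaction 2 were called with library size only. The cause was not tested. Meis3 was not tested under the stricter filter, and only the groups compared was not run for the interaction. Replicate numbers did not pair the libraries (correlations of deviations -0.0886 to 0.0585). With the replicate block, members called were 2, 6, 5, 2 and 1 in the 5 contrasts, as without it, and genes called between genotypes in DMSO went from 11070 to 10798. Depth limits Meis3 most.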

Other observations

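Some genes next to the members also changed with MI-503, where 69% of all genes were called in WT and 55.6% in dKO cells. Dhx34, an RNA helicase gene 10710 bases from Meis3, rose with MI-503 from 7.56 ± 1.27 to 33.9 ± 2.41 CPM in WT (SD, n = 2; log2 fold change 2.16, edgeR adjusted p = 5.02e-09) and from 10.9 ± 1.65 to 18.6 ± 3.15 CPM in dKO cells (0.77, adjusted p = 0.000212). Ndufv3, a gene of respiratory complex I, and Cbs, a gene of cysteine synthesis, flank Pknox1. Both rose with MI-503 in WT (0.76, adjusted p = 6.58e-08, and 2.32, adjusted p = 1.00e-05), where Pknox1 fell. Cbs was low in WT, at 0.263 ± 0.0957 CPM with DMSO and 1.32 ± 0.0915 CPM with MI-503. Mapkap1, 34726 bases from Pbx3, fell with MI-503 in WT (-0.20, adjusted p = 0.00646) and in dKO cells (-0.28, adjusted p = 0.000740). Ager, 60 bases from Pbx2, had group means of 0.115 to 0.314 CPM. The noncoding gene G630016G05Rik, which overlaps Meis2, had 0.286 to 0.408 CPM, and Gm16141, which overlaps Meis1, had 2 counts in 1 library and 0 in the other 7.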
